A study of Mus musculus with 4 samples.

Results

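The 7 genes described here, Lin28a, Lin28b, Igf2bp1, Igf2bp2, Igf2bp3, Hmga1 and Hmga2, encode RNA-binding and chromatin proteins of embryonic and fetal cells that reappear in many tumours. They were taken by symbol from a table of 18061 RefSeq transcripts of 16545 symbols, in which each had 1 transcript. All 7 were found. They were chosen by name with their means in both groups, EtOH and OHT, already known, so their values in this comparison are a description and carry no test of their own. The cells were MLL-AF9 leukaemic cells of strain C57BL/6, taken from mouse bone marrow and grown in liquid culture. MLL-AF9 is a fusion oncoprotein that gives a myeloid leukaemia. By their label, control and treated cells alike were Ring1a-/-;Ring1bf/f Cdkn2a-/-, that is, without Ring1a and Cdkn2a and with floxed Ring1b alleles. Ring1a and Ring1b, listed in the table as Ring1 and Rnf2, are the ubiquitin ligases of the Polycomb complex PRC1, whose role in keeping leukaemic identity the series title names as its question. EtOH (ethanol, the solvent) was given to 2 samples for 72 h and OHT, a label in common use for hydroxytamoxifen, to 2 samples for 72 h. The labels analysed here name neither the recombinase nor whether samples of a group came from separate mice or cultures, so the spread between them may be technical.

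LIN28A and LIN28B bind the precursors of the microRNA let-7 and block their processing, so that let-7 stays low in early embryos and in some tumours. The IGF2BP proteins bind mRNAs, among them m6A-marked ones, and protect or localise them. The HMGA proteins are small architectural factors whose AT-hooks bind the minor groove of AT-rich DNA. The families are linked: let-7 represses the mRNAs of Hmga2, Igf2bp1 and both Lin28 genes, HMGA2 activates Igf2bp2, and a LIN28B, let-7 and HMGA2 axis sets fetal properties of mouse blood stem cells.

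The table is the authors' own comparison and gives 1 mean per group. Each mean solved to whole reads of 2 libraries, called A and B within a group. In each group A is the library with the larger size factor and more reads. These letters stand for no replicate number and pair no libraries across groups. Totals were 3841243 to 6255320 reads. Normalised counts below are reads plus 1, divided by the size factor of the library, as the authors' means are built; the added read understates the folds of low genes. Rnf2, the floxed gene, had normalised counts of 687.5 and 584.6 with EtOH and 716 and 798 with OHT; the deleted part is not given in the sources used here, so this does not check the treatment. Both genes labelled as deleted in all samples had reads: Ring1 had 60 and 65 in EtOH libraries A and B and 177 and 84 in OHT libraries A and B, and the more abundant Cdkn2a transcript had 72 and 29, then 52 and 46. Which parts of either gene the alleles keep is not given in the sources used here, so these reads do not check the genotype as labelled. A control for OHT in cells whose Ring1b is not floxed was not analysed here, so OHT itself and a loss of RING1B cannot be told apart. In bulk RNA, fewer cells of a type and less RNA per cell cannot be told apart either. Of 14 myeloid markers all were measured, with a summed normalised count of 10030 to 10610 in the EtOH libraries and 14030 to 14570 in the OHT libraries. The authors' deposited table calls 1 of the 14 higher, Lyz2, and 0 lower, and 11 had a positive log2 ratio. Csf2rb was the largest part of the sum, with means of 3572 with EtOH and 5600 with OHT. Means of Prtn3 (861 and 646), Cebpe (1079 and 895) and Ptprc (63.8 and 56.9) were lower with OHT. Among the 14 the Kit transcript used was near 0, with 4 and 0 reads with EtOH and 3 and 5 with OHT. It is 1 transcript and may not give the level of the gene. The markers picked out in this paragraph were named after their values were seen. Summed T-cell markers, 3 measured, stood at 4.98 to 7.81 and 5.58 to 5.88, and Cd4 had 0 reads with EtOH. Summed fibroblast markers, 4 measured, stood at 6.63 to 14.3 and 34.6 to 37.8. Most of the sum with OHT was Col1a1, at 4 and 4 reads with EtOH and 38 and 24 with OHT. Col1a2 went the other way, at 0 and 3 reads, then 0 and 0. Pdgfra had 0 and 0 reads, then 2 and 1, and Pdgfrb had 0 and 0, then 1 and 2. The sums were 62.2 to 118.5 and 104 to 193 for 4 B-cell markers, 19.9 to 20.8 and 61.3 to 94.9 for 3 erythroid markers, and 19.5 to 37.3 and 24.4 to 30.1 for 3 endothelial markers. Their part in the results below was not tested.

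The seed of let-7 is the stretch by which it finds these mRNAs, and it is shown because 6 of the 7 transcripts hold its match. RefSeq (GRCm38.p6) lists 9 mature let-7 and miR-98 sequences of the 5p arm, and all 9 share the seed GAGGUAG. Capitals mark the seed, bases 2 to 8, in 3 of them.
let-7a-5p: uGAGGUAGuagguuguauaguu
let-7g-5p: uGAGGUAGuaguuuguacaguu
miR-98-5p: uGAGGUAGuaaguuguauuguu

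Matches were searched on the sense strand of the 3′ UTR of each GENCODE M21 transcript paired with the table's accession. The motifs were CTACCTCA (8mer), CTACCTC (7mer-m8) and TACCTCA (7mer-A1), and a 7mer inside an 8mer was not counted again. Igf2bp1 held 3 8mers and 5 matches in all over 6337 bases. Lin28a held 2 8mers in 2775 bases, Lin28b 1 8mer and 5 matches in all in 4445 bases, and Hmga2 1 8mer and 7 matches in all in 2977 bases. Igf2bp2 had 1 8mer and 2 matches in all in 1784 bases, and Igf2bp3 had 1 match, an 8mer, in 2119 bases. The listed Hmga1 transcript, with a UTR of 317 bases, had 0. Among 16144 transcripts with a UTR, 3.02% held at least 1 8mer, and 5 transcripts, or 0.031%, held at least 3. Among those with a UTR within 20% of the length of Igf2bp1, 12.3% held at least 1 8mer. The share was 6.55% at the length of Hmga2 and 5.64% at that of Lin28a. At least as many 8mers as the gene itself were held by 0.571% at the length of Igf2bp1 and 0.407% at that of Lin28a. A match is a description of the sequence, not a shown site of action. The 8mer of each gene nearest its stop codon and 2 further matches follow, with the match in capitals, the position counted from the first base after the stop codon, and GRCm38 coordinates of the printed bases.
Lin28a, position 909, chr4:134005189-134005218, minus strand: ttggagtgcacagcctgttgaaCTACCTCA
Lin28b, position 36, chr10:45381022-45381051, minus strand: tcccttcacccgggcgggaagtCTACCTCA
Igf2bp1, position 1715, chr11:95961778-95961807, minus strand: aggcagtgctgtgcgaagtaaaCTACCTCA
Igf2bp1, position 4136, chr11:95959357-95959386, minus strand: tgggaaccagcagtgctattaaCTACCTCA
Igf2bp2, position 1313, chr16:22059473-22059502, minus strand: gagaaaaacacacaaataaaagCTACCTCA
Igf2bp3, position 548, chr6:49086787-49086816, minus strand: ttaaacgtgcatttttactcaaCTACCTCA
Hmga2, position 21, chr10:120364224-120364251, minus strand: ggggcgccgacattcaatttCTACCTCA
Hmga2, position 1258, chr10:120362987-120363016, minus strand: caataatccccactcctcaataCTACCTCt

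**Figure D1:**
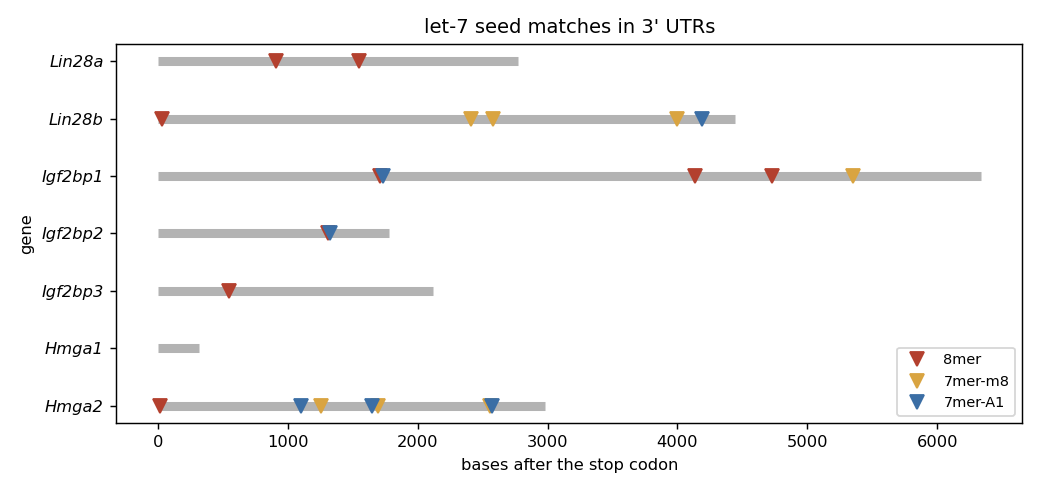
Seed matches of let-7 (triangles, coloured by kind) along the 3′ UTR of each transcript (grey bar), in bases after the stop codon. Igf2bp1 carries 3 8mers, Hmga2 carries 7 matches spread over its UTR, and Hmga1 has 0.

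Promoters were read from RefSeq (GRCm38.p6, 250 bases before to 50 after the start) for 6 of the 7 genes. Igf2bp1 had no promoter window in the source used, so its CpG content is not described. A link between CpG content and the changes with OHT was not tested. PRC1 is known to occupy CpG-rich promoters of silenced genes, so the CpG content is given. Igf2bp2 had 47 CpG in 300 bases, a number reached by 1.44% of 32851 promoters, while Lin28b had 8, reached by 48.6%; the median promoter had 7. Hmga1 had 40 in the first of its 2 windows, Igf2bp3 25, Hmga2 12 and Lin28a 10. The 250 bases upstream are printed for the Lin28 pair, whose levels moved together, and for Igf2bp2 as the CpG-rich contrast. Each CpG is in capitals, 7 for Lin28a, 6 for Lin28b and 40 for Igf2bp2.
Lin28a, chr4:134018817-134019066, minus strand: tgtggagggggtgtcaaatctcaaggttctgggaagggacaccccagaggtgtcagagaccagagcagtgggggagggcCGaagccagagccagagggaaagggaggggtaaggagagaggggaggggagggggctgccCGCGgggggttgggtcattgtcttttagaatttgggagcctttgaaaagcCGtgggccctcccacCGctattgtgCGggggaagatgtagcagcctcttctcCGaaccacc
Lin28b, chr10:45470202-45470451, minus strand: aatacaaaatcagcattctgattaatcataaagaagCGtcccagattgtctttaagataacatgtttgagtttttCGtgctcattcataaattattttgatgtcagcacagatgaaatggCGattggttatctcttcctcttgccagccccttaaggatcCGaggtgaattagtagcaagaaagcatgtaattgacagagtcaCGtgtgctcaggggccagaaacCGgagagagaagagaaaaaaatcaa
Igf2bp2, chr16:22163300-22163549, minus strand: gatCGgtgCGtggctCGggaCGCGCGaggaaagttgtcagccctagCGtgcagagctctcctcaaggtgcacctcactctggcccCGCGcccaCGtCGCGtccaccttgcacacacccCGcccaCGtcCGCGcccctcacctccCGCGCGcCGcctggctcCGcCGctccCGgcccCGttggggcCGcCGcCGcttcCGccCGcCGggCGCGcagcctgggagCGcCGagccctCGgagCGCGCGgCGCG

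The genes did not move as 1 group: both Lin28 genes were lower with OHT, Igf2bp1 and Igf2bp2 higher, Igf2bp3 level, Hmga2 divided within groups and Hmga1 barely detected. By the authors' deposited table, an adjusted p under 0.05 was reached by 3 of the 7, Igf2bp1 higher and Lin28a and Lin28b lower, where 5.48% of all transcripts were called. The libraries of the groups did not overlap for 4 of the 7, and for 51.0% of all transcripts. Limma-voom on the solved reads, a linear model for counts, tested 6 of the 7 and called Igf2bp1 and Igf2bp2 higher and both Lin28 genes lower, where it called 9.72% of transcripts higher and 5.49% lower, 15.2% in all. Since the members were chosen with this comparison in view, nothing is read from those shares.

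**Figure D2:**
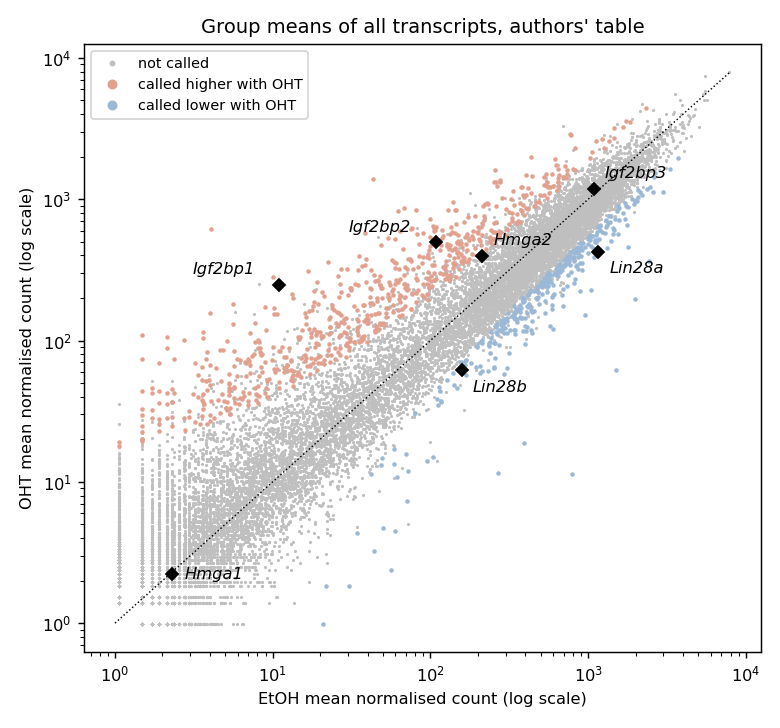
Mean normalised count of every transcript with EtOH (x axis) and OHT (y axis) in the authors' deposited table, on log axes, with the 7 genes as black diamonds and the dotted line marking equal means. Igf2bp1 lies at 10.95 and 247, far above the line, and Lin28a at 1161 and 425, below it.

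Lin28a (NM_145833), a cytoplasmic let-7 antagonist, had normalised counts of 1081 and 1242 in EtOH libraries A and B and of 459 and 392 in OHT libraries A and B. Both EtOH libraries were above both OHT libraries, and libraries of 1 group differed by at most 1.17-fold. The authors' deposited table gives means of 1161 and 425, a 2.73-fold lower level with OHT (log2 ratio -1.45, adjusted p = 9.45e-05). Among all transcripts its EtOH mean stood at percentile 93.7 and its OHT mean at percentile 78.2. The transcript was thus among the more abundant ones in control cells and remained well detected with OHT, at 895 reads over both libraries.

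Lin28b (NM_001031772), its paralogue, which acts mostly in the nucleus, had 180.0 and 138 in EtOH libraries A and B and 78.1 and 45.8 in OHT libraries A and B. Again the groups did not overlap, although the OHT libraries differed by 1.71-fold. Means in the authors' deposited table were 159 and 61.9, 2.57-fold lower with OHT (log2 ratio -1.36, adjusted p = 0.014). Lin28a and Lin28b fell by close amounts. Per kilobase of transcript, Lin28a made up 91.8% of the pair's normalised count in the EtOH means and 91.4% in the OHT means. Without OHT library B the log2 ratio of Lin28b was -1.03, and without OHT library A it was -1.8.

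Igf2bp1 (NM_009951), a regulator of the translation, stability and transport of mRNAs such as that of beta-actin, was nearly silent in control cells. It had 16 and 5 reads in EtOH libraries A and B and 294 and 219 in OHT libraries A and B, or normalised counts of 14.1, 7.81, 247.8 and 245.6. The OHT libraries agreed to 1.01-fold, and each stood far above either EtOH library. In the authors' deposited table the mean rose 22.5-fold, from 10.95 to 247 (log2 ratio 4.49, adjusted p = 1.81e-18). A direct ratio of the reads was 23.1, with an exact 95% interval of 15.0 to 37.7 that covers counting error only. Its EtOH mean lay at percentile 41.4 of transcripts and its OHT mean at percentile 69.5.

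Igf2bp2 (NM_183029), the family member that stays expressed in adult tissues, had 179 and 36.5 in EtOH libraries A and B and 346 and 644 in OHT libraries A and B. Every OHT library was above every EtOH library, but the EtOH libraries differed by 4.91-fold and the OHT libraries by 1.86-fold. The authors' deposited table gives Igf2bp2 means of 108 and 495, a ratio of 4.59 that did not pass its test (adjusted p = 0.216). The ratio depended on the EtOH library used: with all libraries the log2 ratio was 2.20, while leaving out EtOH library A gave 3.76 and leaving out EtOH library B gave 1.47. A fold of at least 3 between EtOH libraries was found for 1.53% of 8378 transcripts with a mean of at least 50, where the median was 1.25.

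Igf2bp3 (NM_023670), a paralogue known for its expression in MLL-rearranged leukaemia, was the main Igf2bp transcript throughout. It had 1217 and 950.5 in EtOH libraries A and B and 1217 and 1147 in OHT libraries A and B. The groups overlapped, and the authors' deposited table lists means of 1084 and 1182 (ratio 1.09, adjusted p of 1). Levels of the 3 paralogues per kilobase were less unequal with OHT. Igf2bp3 made up 85.5% and 95.5% of the family's count per kilobase in EtOH libraries A and B, and 70.3% and 57.6% in OHT libraries A and B. Igf2bp2 made up 14.0% and 4.08%, then 22.3% and 36.0%, and Igf2bp1 made up 0.513% and 0.407%, then 7.42% and 6.40%, in the same order.

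**Figure D3:**
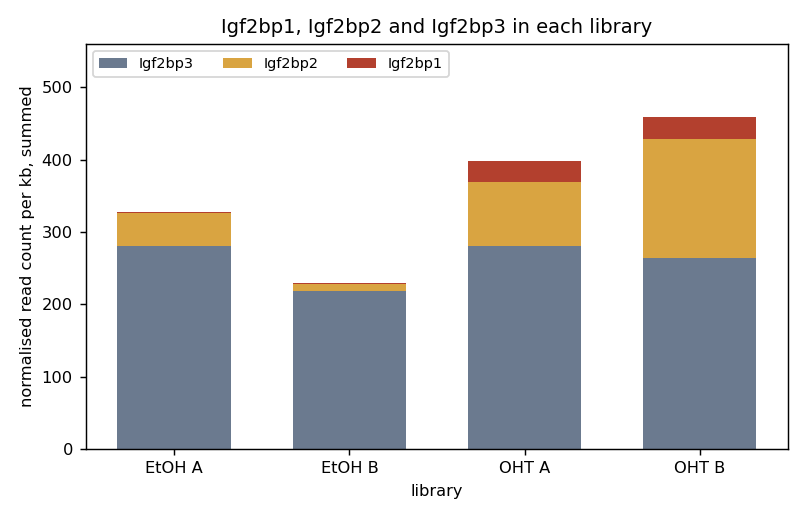
Stacked normalised read counts per kilobase of Igf2bp3, Igf2bp2 and Igf2bp1 (y axis) in each of the 4 libraries (x axis). The sum was 328 and 229 in the EtOH libraries and 398 and 458 in the OHT libraries, with Igf2bp3 between 219 and 280.2 in each.

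Hmga2 (NM_010441), an oncofetal chromatin factor and a classic let-7 target, had 307 and 120 in EtOH libraries A and B and 221 and 576 in OHT libraries A and B. The groups overlapped, and libraries of 1 group differed by 2.56-fold with EtOH and 2.61-fold with OHT, more than the group means did. The authors' deposited table gives Hmga2 means of 213 and 398.5, a ratio of 1.87 (adjusted p of 1). Leaving out 1 library moved the log2 ratio of 0.90 to between 0.05, without OHT library B, and 1.73, without EtOH library A. Hmga2-ps1, a transcribed pseudogene named after Hmga2, had 34 and 9 reads in EtOH libraries A and B and 42 and 10 in OHT libraries A and B; reads that match both copies cannot be told apart here.

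Hmga1 (NM_001166545), which in many proliferating cells is the abundant HMGA gene, had 3 and 0 reads in EtOH libraries A and B and 3 and 0 in OHT libraries A and B. With 3 reads in each group it lies at the counting floor, and no fold is given. RefSeq (GRCm38.p6) names 14 mRNA accessions for this gene and the table holds 1 of them, so the level of the gene is not described by it. Each other member has 1 such accession, except Hmga2 with 2, of which the table holds 1.

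**Figure D4:**
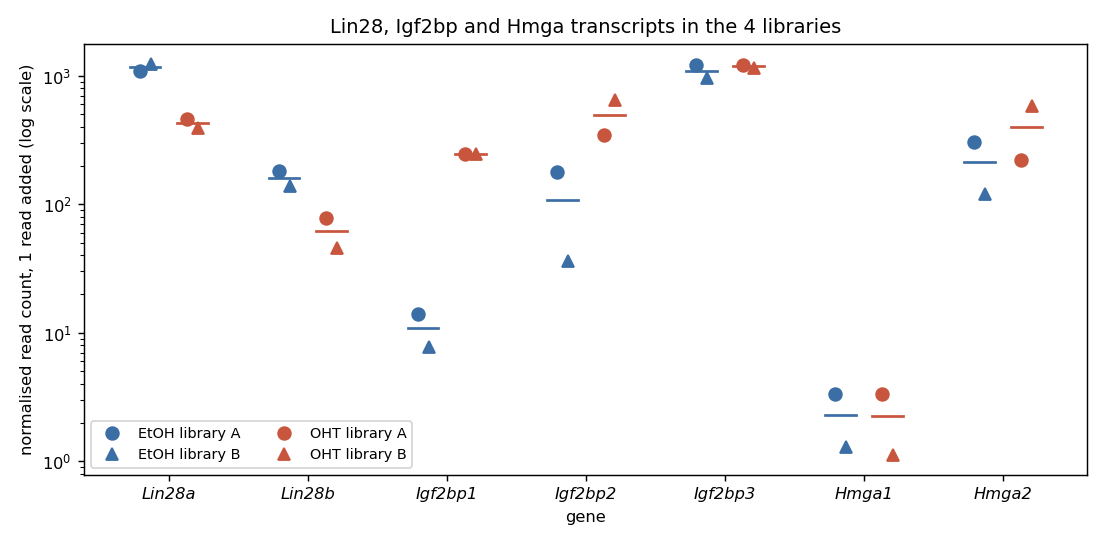
Normalised read count with 1 read added, on a log axis, of each gene in the 4 libraries, with EtOH in blue, OHT in red, library A as circles, library B as triangles and the group mean as a line. The colours separate for Lin28a, Lin28b, Igf2bp1 and Igf2bp2 and overlap for Igf2bp3, Hmga1 and Hmga2.

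Igf2bp2 and Hmga2 shared the order of their libraries: EtOH library A lay above B, and OHT library B above A, for both. Mpo and Elane, which encode neutrophil granule proteins, ran the other way in the same libraries. Mpo, the granule peroxidase, had 22 and 123 reads in EtOH libraries A and B and 418 and 45 in OHT libraries A and B, and the neutrophil elastase gene Elane had 133, 405, 600 and 143. Both are in the myeloid marker list and were named after their values were seen. Across the 14 myeloid markers the summed count differed little within groups, as given above, and single markers differed in order. Prtn3 had the order of Mpo, at 532 and 1190, then 741 and 551.5. Csf2rb, Cebpa, Fcgr3 and Ptprc had that of Hmga2, with Csf2rb at 3976 and 3168, then 4871 and 6329. Lyz2 had neither, at 510.0 and 588.5, then 1233 and 1419. These too were named after their values were seen. The 5 megakaryocyte markers had summed normalised counts of 2375 (A) and 1687 (B) with EtOH and of 2379 (A) and 3887 (B) with OHT. Of them Itga2b, an integrin, and Ppbp, a platelet chemokine, had the library order of Hmga2, with Itga2b at 1170.0 and 617, then 629 and 1839. Pf4, another platelet chemokine, did not share that order with OHT, at 249.4 and 223 in OHT libraries A and B, and Gp1bb, at 8.40 and 1.12, did not either. These markers were named after their values were seen. The part of such differences in the values of Igf2bp2 and Hmga2 was not tested.

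Levels can be ordered between genes per kilobase of the GENCODE M21 transcript, from 0.71 kb for Hmga1 to 8.38 kb for Igf2bp1. With EtOH the mean normalised count per kilobase was 331 for Lin28a, 249.5 for Igf2bp3, 57.5 for Hmga2, 29.4 for Lin28b, 27.7 for Igf2bp2, 3.27 for Hmga1 and 1.31 for Igf2bp1. The EtOH library ranges of Hmga2, Lin28b and Igf2bp2 all overlapped with each other. With OHT the order of the per-kilobase means was Igf2bp3 at 272, Igf2bp2 at 127, Lin28a at 121, Hmga2 at 107, Igf2bp1 at 29.4, Lin28b at 11.5 and Hmga1 at 3.17. The OHT library ranges of Igf2bp2, Lin28a and Hmga2 overlapped. Hmga1, at the counting floor, has no place in either order. Lin28a thus went from the first place to a level shared with Igf2bp2 and Hmga2, and Igf2bp1 from below the library ranges of the other 5 to above that of Lin28b.

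The genes most like 3 members were found by the Euclidean distance of log2 normalised counts, 1 added, over 4 libraries, among 11795 symbols. Nearest to Igf2bp1 were Stac2 (distance 0.58), Rragd (0.63), which encodes a Rag GTPase of amino acid sensing, and Pgap1 (0.67). Stac2 had 14.9 and 5.21 in EtOH libraries A and B and 297 and 262 in OHT libraries A and B. Nearest to Lin28b were Gen1 (0.36), a Holliday junction resolvase, Eltd1 (0.59), an adhesion receptor, and Cep72 (0.64), a centrosome protein. Gen1 had 175.0 and 156 in EtOH libraries A and B and 77.3 and 56.9 in OHT libraries A and B. Nearest to Hmga2 were Akr1c18 (0.46), a steroid dehydrogenase, Mospd2 (0.69) and the prostaglandin receptor gene Ptger3 (0.70). Akr1c18 had 346 and 124 in EtOH libraries A and B and 247 and 757 in OHT libraries A and B, the same order of libraries as Hmga2.

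Genes around the families were read from 11 lists with the members left out. Of 194 listed symbols 156 were measured. By the authors' deposited table, higher levels passed for 7 and lower levels for 2, where 3.62% of all transcripts were called higher and 1.85% lower. Those numbers come to 4.49% and 1.28% of the measured list genes. The median log2 ratio over all transcripts was 0.04.

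The let-7 processing machinery had 21 measured genes, of which the authors' deposited table calls 1 lower and 0 higher, with a median log2 ratio of -0.16. The authors' deposited table lists Dgcr8, the RNA-binding partner of the Drosha nuclease, at 794 with EtOH and 430.0 with OHT (1.85-fold lower, adjusted p = 0.0361). Its normalised counts were 842 and 746 with EtOH and 412 and 448 with OHT, without overlap. Limma-voom on the solved reads did not call Dgcr8 without OHT library A (adjusted p = 0.193) or without OHT library B (adjusted p = 0.0697).

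Of 34 measured genes described as let-7 targets, the authors' deposited table calls 2 higher and 1 lower, with a median log2 ratio of 0.07. By the authors' deposited table, Irs2, an adaptor of the insulin and IGF receptors, rose 2.80-fold from 52.4 to 146.5 (adjusted p = 0.0114) and the kinase gene Map4k3 rose 2.22-fold from 124 to 274 (adjusted p = 0.0256). Cdc25a, a phosphatase that drives entry into S phase, fell in the authors' deposited table by 2.23-fold, from 1040.0 to 466 (adjusted p = 0.00421). Limma-voom did not call Irs2 without OHT library A (adjusted p = 0.0748), nor Map4k3 without EtOH library B (adjusted p = 0.0674) or OHT library A (adjusted p = 0.199). The listed targets thus held calls in both directions.

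Among 24 measured mRNAs described as bound by IGF2BP proteins, the authors' deposited table calls 1 higher and 0 lower, with a median log2 ratio of 0.14. The authors' deposited table lists Fscn1, the actin-bundling protein fascin, at 5.92 with EtOH and 56.2 with OHT (9.49-fold higher, adjusted p = 0.000168). Its reads were 7 and 3 with EtOH and 69 and 47 with OHT. Of 11 genes described as regulated by HMGA proteins, 1 was higher and 0 lower, with a median log2 ratio of 0.33. By the authors' deposited table, Snai1, a repressor of epithelial genes, rose 4.96-fold from 8.17 to 40.5 (adjusted p = 0.0136). Leaving out EtOH library A, limma-voom did not call Snai1 (adjusted p = 0.0625).

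The IGF axis, with ligands, binding proteins, receptors and adaptors, had 20 measured genes, of which the authors' deposited table calls 2 higher and 0 lower, and a median log2 ratio of 0.28. Irs2 was one of them. The other was Igf2r: by the authors' deposited table, this gene, the receptor that clears IGF2 and carries lysosomal enzymes, rose 2.86-fold from 418 to 1194 (adjusted p = 2.74e-05). Normalised counts of Igf2r were 444 and 392 with EtOH and 1241 and 1147 with OHT. Igf2, the ligand that named the IGF2BP family, had 0 reads in both EtOH libraries and 5 and 2 in the OHT libraries; it was named after its values were seen.

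Of 11 other m6A readers and mRNA stability factors, the authors' DESeq comparison called 0 and limma-voom called 0, while the deposited unadjusted p of 1 gene was under 0.05. Their median log2 ratio was -0.31, and 1 of the 11 had a positive one. The authors' deposited table lists Elavl1, a binder of AU-rich mRNA elements, at 1186 and 950.2 and Ythdf2, which hastens decay of m6A-marked mRNA, at 1044 and 895. Of 14 other HMG proteins, the authors' DESeq comparison called 0, while limma-voom called 1 higher and 2 lower. The deposited unadjusted p of 4 HMG genes was under 0.05, and the list's median log2 ratio was -0.36. The authors' deposited table lists Hmgb1, a DNA-bending protein, at 1796 and 1383 (adjusted p of 0.971) and Hmgn2, which binds nucleosomes, at 1816 and 1223 (adjusted p = 0.812).

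Further oncofetal and imprinted genes were mostly low. Of 16 measured, 7 held no more than 3 reads per group, and 2 passed the low-count filter of limma-voom. The authors' DESeq comparison called 0 and limma-voom called 0, the deposited unadjusted p was under 0.05 for 0 of them, and their median log2 ratio was 0.56. The authors' deposited table lists Afp, alpha-fetoprotein, at 182 and 211 and Plag1, a zinc-finger oncogene, at 32.0 and 42.6. Among 11 measured pluripotency genes 1 rose and 0 fell, with a median log2 ratio of -0.04. Klf4, also a factor of monocytes, rose in the authors' deposited table by 4.93-fold, from 12.3 to 60.7 (adjusted p = 0.00359). Among 12 genes of fetal blood stem cells 1 rose and 0 fell, with a median log2 ratio of 0.23. Procr, a receptor on blood stem cells, rose in the authors' deposited table by 4.17-fold, from 43.1 to 179.9 (adjusted p = 0.000176). Of 4 measured globin genes and regulators, the authors' DESeq comparison called 0. The deposited unadjusted p of 1 globin gene was under 0.05, and the list's median log2 ratio was 2.02. The authors' deposited table lists Klf1, the erythroid factor, at 12.1 and 9.23 and the embryonic globin gene Hbb-bh1 at 2.72 and 17.7 (adjusted p = 0.207). Limma-voom called Hbb-bh1 with an adjusted p of 0.0262, and did not call it without EtOH library B (adjusted p = 0.0794) or without OHT library B (adjusted p = 0.088).

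**Figure D5:**
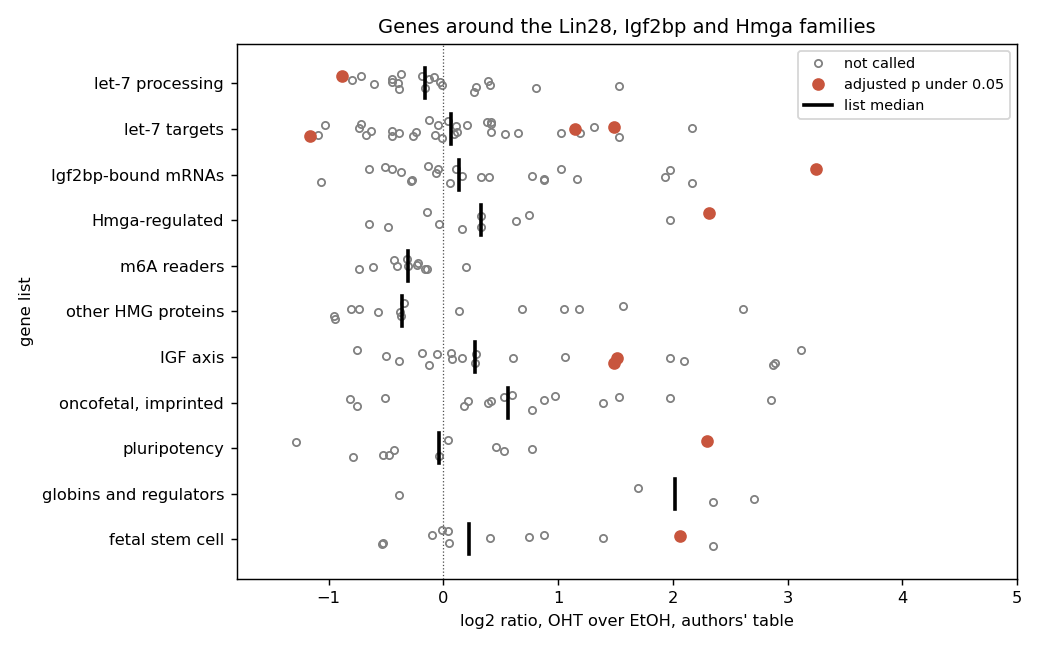
Log2 ratio of OHT over EtOH in the authors' deposited table (x axis) for each measured gene of 11 lists (y axis), with filled points for an adjusted p under 0.05 and black bars for list medians. Most points are open: 7 genes rose and 2 fell among 156.

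A let-7 8mer is a property read from sequence alone. Of 481 transcripts that hold one, with the members left out, the authors' deposited table calls 24 higher and 8 lower, or 4.99% and 1.66%. Among 15657 transcripts without an 8mer, the authors' deposited table calls 612 higher and 310 lower, or 3.91% and 1.98%. The median log2 ratios were 0.06 with a match, members left out, and 0.04 without, but transcripts with a match had longer UTRs, with a median of 2251 bases against 870, and a higher median EtOH mean, 112 against 42.2, and the difference was not tested. Of the 22 transcripts with at least 2 8mers, members included, the authors' deposited table calls 1 higher and 2 lower. Their median log2 ratio was 0.45. The 1 higher call was Igf2bp1 and Lin28a was 1 of the 2 lower ones, so nothing is read from these counts. The 5 with at least 3 8mers, which include Igf2bp1, had a median of 1.53. That median is the value of Trim71, which had 1 and 1 reads with EtOH and 3 and 7 with OHT. The hairpin transcripts of let-7 were hardly sampled: Mirlet7d had 9 and 4 reads with EtOH and 6 and 5 with OHT, and Mirlet7b, Mirlet7c-2, Mirlet7f-1 and Mirlet7i held no more than 3 reads per group. Libraries of mRNA do not measure mature let-7, so its level is not described by these data.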

How the data were processed

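RNA was sequenced from 2 EtOH and 2 OHT samples. The labels' protocols give an Illumina TruSeq RNA preparation (kit version 2), which keeps no strand. TopHat, DESeq and mm9 are named, without tool versions, per the submitters' processing notes. Per the file headers, the authors deposited a signal of mean normalised reads per group, their ratio, the log2 of that ratio, and a p-value with its adjusted value. An adjusted p under 0.05 by the authors makes a call. Each mean was solved to (reads + 1) over a size factor in 2 libraries. The solution was unique for 100% of transcripts, and 0.078% (EtOH) and 0.1% (OHT) of means still solved when moved by up to 0.1%. Size factors were 1.206 and 0.768 for EtOH and 1.191 and 0.896 for OHT. Intervals and floors (3 reads) cover counting error only.

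As an alternative, limma-voom (limma 3.58.1, R 4.3.3, Benjamini-Hochberg adjustment, 2 residual degrees of freedom) was fitted to 11338 transcripts with at least 10 reads in 2 libraries, which include 6 of the 7 members. It was tested on simulated data. Most of the smaller fold changes set there were not called, so a gene without a call may still have changed. On the solved reads limma-voom called 9.72% of the 11338 transcripts higher and 5.49% lower (15.2% in all). Of the members it called 2 higher and 2 lower. Members and lists were chosen with earlier results of these data known. A list symbol is represented by its most abundant transcript. Named were all members, up to 4 called genes per list with the smallest adjusted p (the 2 most abundant where none was called) and the 3 nearest symbols of 3 members; others are marked as named after their values were seen. GENCODE M21 (GRCm38) was paired by accession for 17640 transcripts and used for lengths and UTRs only; no coordinates were moved to or from mm9. Protein sequences were not used here.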

Additional observations from a re-analysis of the deposited data

How the results depend on the processing

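No paired analysis was possible because no column carries the replicate numbers of the labels and the solved libraries cannot be tied to them, so no replicate block was fitted. Every direction of the log2 ratio of Lin28a, Lin28b, Igf2bp1, Igf2bp2 and Hmga2 was kept under a pseudocount of 10, scaling by total reads or by trimmed means of M values, limma-voom, and without any 1 library; Igf2bp3, near 0, turned to -0.04 without EtOH library B. With a pseudocount of 10 the log2 ratio of Igf2bp1 was 3.61. Without 1 library the log2 ratio ran from -1.57 to -1.34 for Lin28a, -1.8 to -1.03 for Lin28b, 4.13 to 4.98 for Igf2bp1, 1.47 to 3.76 for Igf2bp2, -0.04 to 0.31 for Igf2bp3 and 0.05 to 1.73 for Hmga2. The authors' 654 higher and 335 lower calls became 1102 and 623 with limma-voom, 1646 and 800 without its low-count filter, 1191 and 607 with trimmed-mean scaling, and 795 to 1597 higher and 133 to 1075 lower without 1 library. In the lists, 7 higher and 2 lower became 17 and 8 without the filter; 4 were lower with limma-voom and with trimmed-mean scaling, and without 1 library 7 to 13 were higher and 1 to 13 lower. The fewest lower calls came without OHT library A, and in the lists also without OHT library B; most came without EtOH library A. A left-out library leaves 1 sample in a group, assumed to vary like the other group. The cause of these moves was not tested. Depth limits Hmga1, with 3 reads a group, and Igf2bp1 with EtOH, with 21 reads.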

Other observations

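Trim71, a stem-cell ubiquitin ligase and known let-7 target, held 4 let-7 8mers in a UTR of 5512 bases, and only Trim6, with 5, held more among transcripts with a UTR. Trim71 was close to silent, with 1 and 1 reads in the EtOH libraries and 3 and 7 in the OHT libraries. Nr6a1, an orphan nuclear receptor of embryonic cells, held 3 8mers, with 2 and 0 reads in the EtOH libraries and 4 and 3 in the OHT libraries. Rian, an imprinted noncoding RNA, had 0 reads in both EtOH libraries and 8 and 6 in the OHT libraries (adjusted p = 0.543 in the authors' deposited table). Ccnd1, cyclin D1, which stands both among let-7 targets and among IGF2BP-bound mRNAs, had normalised counts of 124 and 131.5 with EtOH and 409.9 and 733.5 with OHT. By the authors' deposited table, Ccnd1 had an adjusted p of 0.0585, and limma-voom gave an adjusted p of 0.00457. These genes were named after their values were seen.

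The shared order of libraries in Igf2bp2 and Hmga2 was found in other transcripts too, with thresholds chosen after seeing the data. Transcripts with a mean of at least 50 numbered 8378. Of them 71 (0.848%) had EtOH library A at least 2-fold above B and OHT library B at least 1.8-fold above A. These included Tal1, Itgb3 and Vwf, but also Tpsb2, Ccl2 and Il7r. The mirror pattern was found in 25 (0.298%), which included Mpo, Elane, Ltf and Camp, but also Grik5, Myo18b and Wfikkn1. The share of any cell type in either set was not tested. The genes picked from both sets were named after their values were seen. Library A exceeded B in both groups by the same folds in 8 transcripts, and B exceeded A in both groups in 1. The authors' deposited table called 2 of the 71 and 1 of the 25.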
